A study of Bos taurus with 31 samples.

Results

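Transcript levels of 10 genes of the NOTCH pathway were described in mammary epithelial organoids of dairy cows, taken once before a first pregnancy and once in lactation. The genes were the receptors NOTCH1, NOTCH2 and NOTCH3, the ligands JAG1, JAG2 and DLL1, the inhibitor NUMB, the nuclear effector RBPJ and the target genes HES1 and HEY1. They were chosen by name as the pathway of luminal fate choice, and all 10 were found among the 14084 rows of the count table, each in a single row. Organoids are the clusters of epithelium left when biopsied gland tissue is digested with collagenase and washed by repeated short spins. The virgin group held 15 libraries from heifers at 14 months of age and the lactating group 16 libraries from the same animals at 40 to 60 days of lactation. Of the 16 cows, 15 gave both stages and 1 (L495) a lactating library alone. No treatment or genotype separated the groups, and the lactating samples were also from older animals that had calved, so stage, age, parity and sampling date cannot be told apart. Libraries are named by a letter for the stage and the number of the animal, as in V479 and L479.

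NOTCH receptors sit in the membrane and are activated by ligands of the Jagged and Delta families on a neighbouring cell. Binding leads to cleavage of the receptor, and its intracellular part enters the nucleus, where it joins the DNA-binding protein RBPJ and switches on repressor genes of the HES and HEY families. In the mouse mammary gland, NOTCH activity favours luminal over basal fate, loss of Rbpj leads to an excess of basal cells in pregnancy, and Dll1 is made by basal cells.

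Total counts, with each locus counted once, ranged from 12477568 to 38794104 in virgin and from 17637505 to 45478555 in lactating libraries. Levels are given as CPM, the usual rate of reads relative to the library total, with totals scaled by TMM, a factor that balances libraries on the bulk of their genes. The totals behind CPM are larger than those above, since they are sums over all tested rows and a repeated locus enters with each of its rows. They ran from 20123457 (V479) to 72128206 (L478). The label of the tissue was checked against marker lists. The summed level of a general luminal list (4 keratin genes, EPCAM and GATA3) ranged from 1321 to 6728 CPM in virgin and from 742 to 2198 CPM in lactating libraries, and that of milk protein genes from 158 to 3342 CPM in virgin and from 1563 to 647900 CPM in lactating libraries. Other cell types were present too. The calls of markers are to be read against all tested rows, of which 24.2% were called higher and 30.9% lower in lactation. Endothelial markers summed to 29.8 to 558 CPM in virgin and 201 to 1271 CPM in lactating libraries, and all 13 were called higher in lactation. Of the pericyte markers, 5 of 7 were called higher and 0 lower, and their sum ranged from 18.4 to 643 CPM in virgin and from 95.9 to 703 CPM in lactating libraries. All 7 tested leukocyte markers were called higher, with sums of 6.08 to 49.1 CPM and 50.1 to 99.7 CPM. Of the hormone-sensing luminal markers all 6 tested were called lower, and of the general luminal list the 4 keratins KRT7, KRT8, KRT18 and KRT19 were called lower while EPCAM and GATA3 were not called. Of the fibroblast markers 5 of 7 were called lower, but without V502 the log2 fold change of COL1A1 went from -1.87 to -0.21 and that of COL3A1 from -1.34 to -0.06, neither called, and DESeq2, limma-voom and the animal block did not call them either. Of 5 luminal progenitor markers, 3 were called higher and 1 lower. No locus of these lists was at 0 in all libraries of a stage. Some marker rows may hold reads of other genes. PECAM1 has the same counts as POLG2, and LALBA, CD14 and RGS5, among others, span 43.7, 25.9 and 3.77 times their RefSeq gene. In such bulk samples, fewer cells of a type and less RNA per cell cannot be told apart. Some libraries stood apart. L478 and L538 were the lowest lactating libraries in milk protein genes (3811 and 1563 CPM) and in endothelial markers (203.5 and 201 CPM). V479 had the highest myoepithelial (5699 CPM) and general luminal (6728 CPM) sums of the virgin libraries. V502 had the highest virgin sums of the fibroblast (21550 CPM), endothelial (558 CPM) and pericyte (643 CPM) lists. For the 10 genes, values without these libraries are given where they hold the highest or the lowest level.

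Of the 10 genes, 4 rose in lactation (DLL1, JAG2, NOTCH1 and HEY1), 1 fell (RBPJ) and 5 were not called by the quasi-likelihood test of edgeR, where a call is a p adjusted over 13180 tested rows (Benjamini-Hochberg) of less than 0.05. Over all rows, 24.2% were called higher, 30.9% lower and 55.1% either way, and 5 of 10 is near that background. Past 2-fold, 1 of the 10 was called higher (DLL1) and 0 lower, against 10.8% and 8.19% of all rows. The median log2 fold change was 0.22 for the 10 genes and -0.08 for all rows. The largest change was that of DLL1. The split of calls depended on the scaling. Without TMM factors the median of all rows shifted by -0.48, 1 of the 10 genes (DLL1) was called higher and 4 (RBPJ, NOTCH3, NUMB and HES1) lower, against 1389 and 7751 of all rows. Changes are therefore relative to the bulk of the genes.

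**Figure D1:**
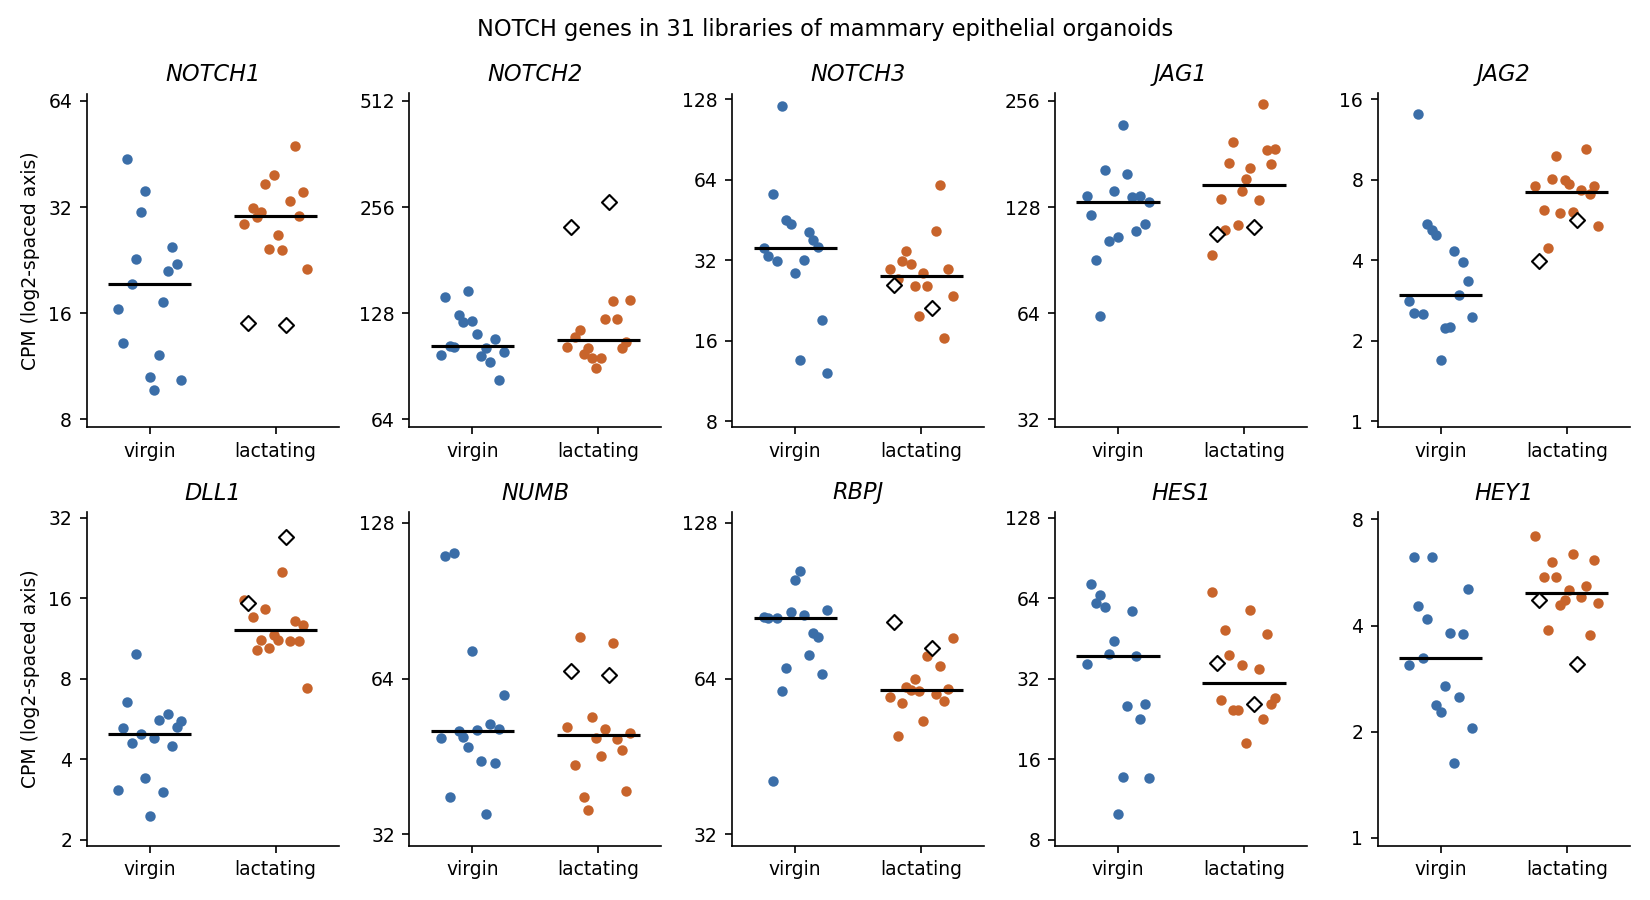
CPM of the 10 NOTCH genes in each library, on a log2-spaced axis, with 15 virgin (blue) and 16 lactating (orange) libraries and the median of each stage as a bar. Open diamonds are L478 and L538, which lie above all other libraries for NOTCH2. For DLL1, 15 of the 16 lactating libraries lie above every virgin library.

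Among the ligands, DLL1 (ENSBTAG00000031476), a Delta-type ligand, had a virgin level of 2.45 CPM at the lowest (V509), 4.96 CPM at the median and 9.89 CPM at the highest (V502). In lactation its lowest level was 7.37 CPM (L615), its median 12.2 CPM and its highest 27.1 CPM (L538). The stages hardly overlapped: 15 of 16 lactating libraries were above all virgin libraries, and 14 of 15 virgin libraries were below all lactating ones. The log2 fold change was 1.44 ± 0.17 (SE, edgeR adjusted p = 3.18e-08), and DLL1 was higher in 15 of 15 animals, with differences of 0.41 to 2.34 on the log2 scale. DLL1 was the only one of the 10 genes whose call was kept, in the same direction, under every setting tried. Without TMM factors its log2 fold change was 0.96 (edgeR adjusted p = 1.01e-04), and without L478 and L538 it was 1.32 (edgeR adjusted p = 6.88e-08). It was 1.55 without V502. In the authors' deposited table it was also the only one of the 10 with a q-value below 0.05 (3.25e-12, log2 fold change -1.47, signed virgin minus lactating).

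JAG2 (ENSBTAG00000007319), a Jagged ligand, was at 1.69 to 5.45 CPM in 14 virgin libraries and at 14.1 CPM in V479, with a virgin median of 2.96 CPM. In lactation it ranged from 3.97 CPM (L478) to 10.4 CPM (L595) with a median of 7.18 CPM. The ranges thus overlapped, with 10 of 15 virgin libraries below all lactating ones and V479 above all of them. Its log2 fold change was 0.79 ± 0.22 (SE, edgeR adjusted p = 0.00342), with 14 of 15 animals higher and the animal of V479 lower. Without V479 the value was 1.06, and without L478 and L538 it was 0.85. The call was lost without TMM factors (0.34, edgeR adjusted p = 0.122) and in a fit that left out 5 animals, those with an unexplained letter in the title of the virgin library (0.70, edgeR adjusted p = 0.0603), where 10 virgin and 11 lactating libraries remained.

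JAG1 (ENSBTAG00000012817), the other Jagged ligand, did not pass the test. It was at 62.9 to 219 CPM in virgin libraries (median 132.4 CPM) and at 93.5 to 250.3 CPM in lactating libraries (median 148 CPM), so the stages overlapped over most of their range. Its log2 fold change was 0.24 ± 0.14 (SE, edgeR adjusted p = 0.160), with 10 of 15 animals higher, and it changed sign without TMM factors (-0.28, edgeR adjusted p = 0.138).

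Of the receptors, NOTCH1 (ENSBTAG00000022799) rose. Its virgin level ran from 9.66 CPM (V531) over a median of 19.4 CPM to 43.8 CPM (V479), and its lactating level from 14.8 CPM (L538) over 30.1 CPM to 47.8 CPM (L595). The ranges overlapped, with L478 (15.0 CPM) and L538 below the 21.4 CPM that was the lowest of the other 14 lactating libraries. The log2 fold change was 0.51 ± 0.20 (SE, edgeR adjusted p = 0.0263) and 13 of 15 animals were higher. Without V479 it was 0.63, without L478 and L538 0.61 (edgeR adjusted p = 0.00676), and with the animal as a block 0.59 (edgeR adjusted p = 0.00167). The call was lost without TMM factors (0.04, edgeR adjusted p = 0.867) and without the animals with lettered titles (0.53, edgeR adjusted p = 0.0715).

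NOTCH2 (ENSBTAG00000007909) was not called. Its level was 82.9 to 148 CPM in virgin libraries, with a median of 103 CPM. In lactation 14 libraries lay between 89.5 and 139 CPM, while L478 stood at 224 CPM and L538 at 264 CPM, above every other library. On the log2 scale, the difference of 0.20 ± 0.14 (SE, edgeR adjusted p = 0.215) became -0.01 (edgeR adjusted p = 0.964) without those 2 libraries.

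NOTCH3 (ENSBTAG00000043971), which marks luminal progenitors in the mouse and is also made by the mural cells of vessels, was not called either. Virgin libraries ranged from 12.1 CPM (V615) to 120.5 CPM (V502) with a median of 35.5 CPM, and lactating libraries from 16.4 CPM (L598) to 60.9 CPM (L595) with a median of 27.9 CPM. The stages overlapped, and V502 was the only virgin library above all lactating ones. The log2 fold change was -0.40 ± 0.22 (SE, edgeR adjusted p = 0.127), lower in 9 of 15 animals. It was -0.17 without V502 and -0.85 without TMM factors, where it was called (edgeR adjusted p = 0.00217), and it was also called without L595 (-0.51).

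RBPJ (ENSBTAG00000003602), the DNA-binding partner of the cleaved receptors, fell. It was at 40.6 CPM (V479) at the lowest, 83.6 CPM at the median and 103 CPM (V531) at the highest in virgin libraries, and at 49.5 CPM, 60.9 CPM and 82.2 CPM (L478) in lactating ones. The upper virgin values stood clear, with 8 of 15 virgin libraries above all lactating ones, and V479 was the single virgin library below them all. The log2 fold change was -0.30 ± 0.10 (SE, edgeR adjusted p = 0.0104), and RBPJ was lower in 13 of 15 animals. It was -0.35 both without V479 and without L478 and L538. The call was lost without the animals with lettered titles (-0.25, edgeR adjusted p = 0.136), while without TMM factors the value was -0.78 (edgeR adjusted p = 6.3e-05).

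NUMB (ENSBTAG00000011683), an endocytic adaptor that inhibits NOTCH signalling, was not called. It was at 35.0 to 112 CPM in virgin libraries (median 50.7 CPM) and at 35.7 to 77.1 CPM in lactating libraries (median 49.7 CPM). V478 (111 CPM) and V490 (112 CPM) were the only libraries above the lactating range. The log2 fold change was -0.14 ± 0.15 (SE, edgeR adjusted p = 0.432), with 8 of 15 animals higher.

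The target genes differed from each other in their calls. HEY1 (ENSBTAG00000015717), a repressor of the HEY family, was at 1.63 to 6.25 CPM in virgin libraries with a median of 3.24 CPM, and at 3.103 to 7.17 CPM in lactating libraries with a median of 4.93 CPM. The ranges overlapped, with 7 of 15 virgin libraries below all lactating ones. HEY1 rose by 0.50 ± 0.17 on the log2 scale (SE, edgeR adjusted p = 0.0112), in 11 of 15 animals, and by 0.55 without L478 and L538. The call was lost without TMM factors (0.01, edgeR adjusted p = 0.963) and without the animals with lettered titles (0.48, edgeR adjusted p = 0.0715).

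HES1 (ENSBTAG00000000569), a repressor of the HES family, was at 9.97 CPM (V509) to 72.0 CPM (V478) in virgin libraries and at 18.3 CPM (L509) to 67.6 CPM (L468) in lactating libraries. The medians were 39.0 and 30.9 CPM, and the lactating range lay within the virgin one. Its log2 fold change was -0.15 ± 0.24 (SE, edgeR adjusted p = 0.614), with 7 of 15 animals higher. Without TMM factors it was called lower (-0.57, edgeR adjusted p = 0.0286). A difference between the changes of HES1 and HEY1 was not tested.

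**Figure D2:**
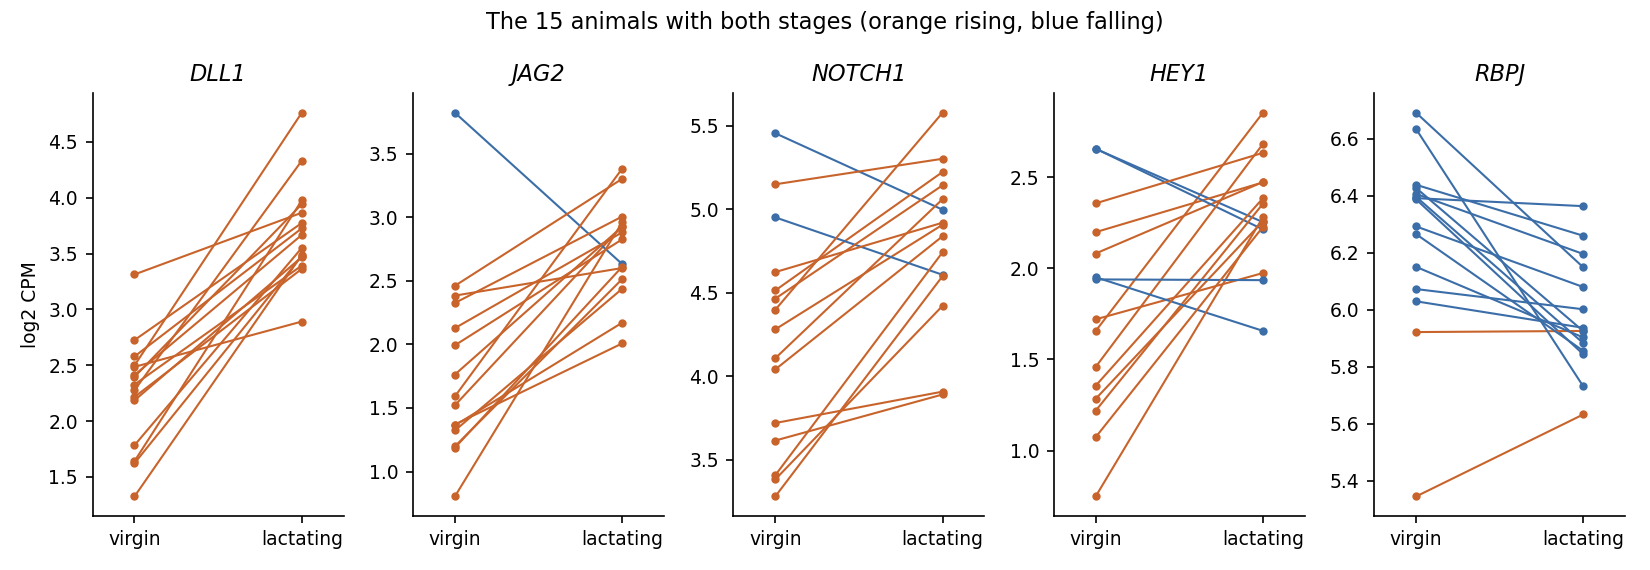
Log2 CPM of the 5 called genes in the 15 animals with both stages, 1 line per animal, orange where the lactating value is higher and blue where it is lower. DLL1 is higher in 15 of 15 animals, JAG2 in 14, NOTCH1 in 13 and HEY1 in 11, and RBPJ is lower in 13.

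The locus lengths behind the authors' RPKM values (reads normalised to locus length and depth) were those of the gene span with introns, from 2895 bases for HEY1 to 242412 bases for RBPJ, so levels are not compared across the 10 genes. For the short loci of HES1 (3187 bases) and HEY1 (2895 bases), the authors' deposited RPKM values were 11.7 ± 6.17 (SD, n = 15) and 1.18 ± 0.476 (SD, n = 15) in virgin libraries, and 10.5 ± 4.07 (SD, n = 16) and 1.67 ± 0.340 (SD, n = 16) in lactating libraries. Per base of locus, HES1 was thus the more abundant of the target genes at both stages, beyond the spread of the libraries, since its lowest value (3.01 in virgin and 5.61 in lactating libraries) was above the highest of HEY1 (2.10 and 2.34). JAG2 was counted over 0.545 times, NUMB over 1.40 times and HES1 over 1.28 times the span of the RefSeq gene, and the other 7 over 0.950 to 1.15 times.

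Other genes of the pathway were described from a list of 58, of which 54 were found and tested. Of these, 20 rose, 8 fell and 26 were not called, with a median log2 fold change of 0.10. Over all rows 24.2% were called higher, 30.9% lower and 55.1% either way, so that 28 of 54 is near the background, and the counts by role below are to be read against the same shares. Without TMM factors 8 rose and 24 fell, against 1389 and 7751 of all rows. Without the animals with lettered titles 13 rose and 7 fell, against 2416 and 3063 of all rows. The genes that rose most were a Delta ligand, a Deltex gene, a Fringe gene and the receptor NOTCH4.

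DLL4, a Delta ligand known from endothelial cells, was at 1.49 to 17.6 CPM in virgin and 9.78 to 88.7 CPM in lactating libraries, with medians of 3.59 and 39.3 CPM. The rise of DLL4 was 2.95 ± 0.37 (SE, edgeR adjusted p = 8.82e-08), higher in 15 of 15 animals. NOTCH4, a receptor also known from endothelial cells, had medians of 0.459 and 2.65 CPM and rose by 1.97 ± 0.33 (SE, edgeR adjusted p = 7.92e-06), also in 15 of 15 animals. The non-canonical ligands DLK1 (1.41 ± 0.56, edgeR adjusted p = 0.0328) and DLK2 (0.66 ± 0.23, edgeR adjusted p = 0.0153) were called higher, and both calls were lost without TMM factors and without the animals with lettered titles. The call of DLK1 was also lost when L502, L504 or L509 was left out in turn (1.27 and an edgeR adjusted p of 0.0584 without L502), and its value was 2.32 with the animal as a block and 2.68 with limma-voom.

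Of 6 genes that add sugars to the receptors, 4 rose and 0 fell. The Fringe enzymes, which extend sugars on the receptors and thereby change which ligands they respond to, went apart in their calls: those that rose were MFNG (2.36 ± 0.34, edgeR adjusted p = 7.88e-07) and LFNG (1.24 ± 0.17, edgeR adjusted p = 4.04e-07), each higher in 15 of 15 animals, while RFNG was not called (0.12 ± 0.13, edgeR adjusted p = 0.448). LFNG had medians of 5.04 CPM in virgin and 12.9 CPM in lactating libraries. Of 9 genes of receptor cleavage, 3 rose, 1 fell and 5 were not called. FURIN, the protease of the first cut, had medians of 28.9 and 91.0 CPM and rose by 1.53 ± 0.16 (edgeR adjusted p = 2.5e-09) in 15 of 15 animals. PSEN2, a catalytic subunit of gamma-secretase, fell by 0.67 ± 0.09 (edgeR adjusted p = 2.48e-07) in 15 of 15.

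Genes that tag ligands or receptors with ubiquitin went both ways. NEURL1, a ligase that acts on ligands, had medians of 2.75 and 1.052 CPM and fell by 1.80 ± 0.25 (edgeR adjusted p = 4.19e-07, -1.54 without V479, its highest library) in 15 of 15 animals, while MIB2, another, rose by 0.43 ± 0.13 (edgeR adjusted p = 0.00459), a direction that turned without TMM factors (-0.07, edgeR adjusted p = 0.671) and a call lost without the animals with lettered titles. ITCH, a ligase of NOTCH receptors, fell by 0.84 ± 0.13 (edgeR adjusted p = 1.55e-06) in 14 of 15 animals, and the value for NUMBL, the paralog of NUMB, was -0.26 ± 0.15 (edgeR adjusted p = 0.130), and -0.15 without V479. Of the 5 Deltex genes, 2 rose and 2 fell. DTX1, which binds the intracellular part of the receptors, rose by 2.60 ± 0.33 (edgeR adjusted p = 9.83e-08), from a median of 1.09 to 7.03 CPM, and DTX3L by 0.70 ± 0.13 (edgeR adjusted p = 2.28e-05), a call lost without TMM factors (0.17, edgeR adjusted p = 0.343).

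In the nucleus, 2 of 7 tested coactivators rose and 2 fell. MAML2, 1 of those that fell, shares its counts with the row of MTMR2, so its reads cannot be assigned to it alone. The acetyltransferases KAT2B (0.83 ± 0.15, edgeR adjusted p = 2.81e-05) and KAT2A (-1.01 ± 0.17, edgeR adjusted p = 9.45e-06) went opposite ways. Of 10 corepressors, 2 rose, 1 fell and 7 were not called. TLE4, a Groucho-type partner of HES proteins, rose by 0.94 ± 0.10 (edgeR adjusted p = 7.75e-09) in 15 of 15 animals, and CTBP2 fell by 0.41 ± 0.09 (edgeR adjusted p = 1.39e-04).

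Of the 5 other HES and HEY genes tested, 2 rose and 3 were not called. HES6, known as an antagonist of HES1, had medians of 8.70 and 17.2 CPM and rose by 0.82 ± 0.20 (edgeR adjusted p = 6.94e-04) in 13 of 15 animals. HEYL, a target gene known from vessels, rose by 0.90 ± 0.33 (edgeR adjusted p = 0.0220), and by 1.36 without V502, which held the highest virgin level of 30.4 CPM. Both calls were lost without TMM factors (0.29 and 0.38), and that of HEYL also without the animals with lettered titles (0.79). HES4 was not called (-0.29 ± 0.28, edgeR adjusted p = 0.383, and -0.04 with the animal block). HEY2 was not called (-0.56 ± 0.30, edgeR adjusted p = 0.113), with -0.27 without V502 and -0.31 with the animal block, but it was called lower without V581 (-0.66, edgeR adjusted p = 0.0432). HES2 was not called either (-0.31 ± 0.20, edgeR adjusted p = 0.185, and -0.13 without V479), and its row holds the same counts as that of ACOT7 and spans 54.6 times the RefSeq gene.

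**Figure D3:**
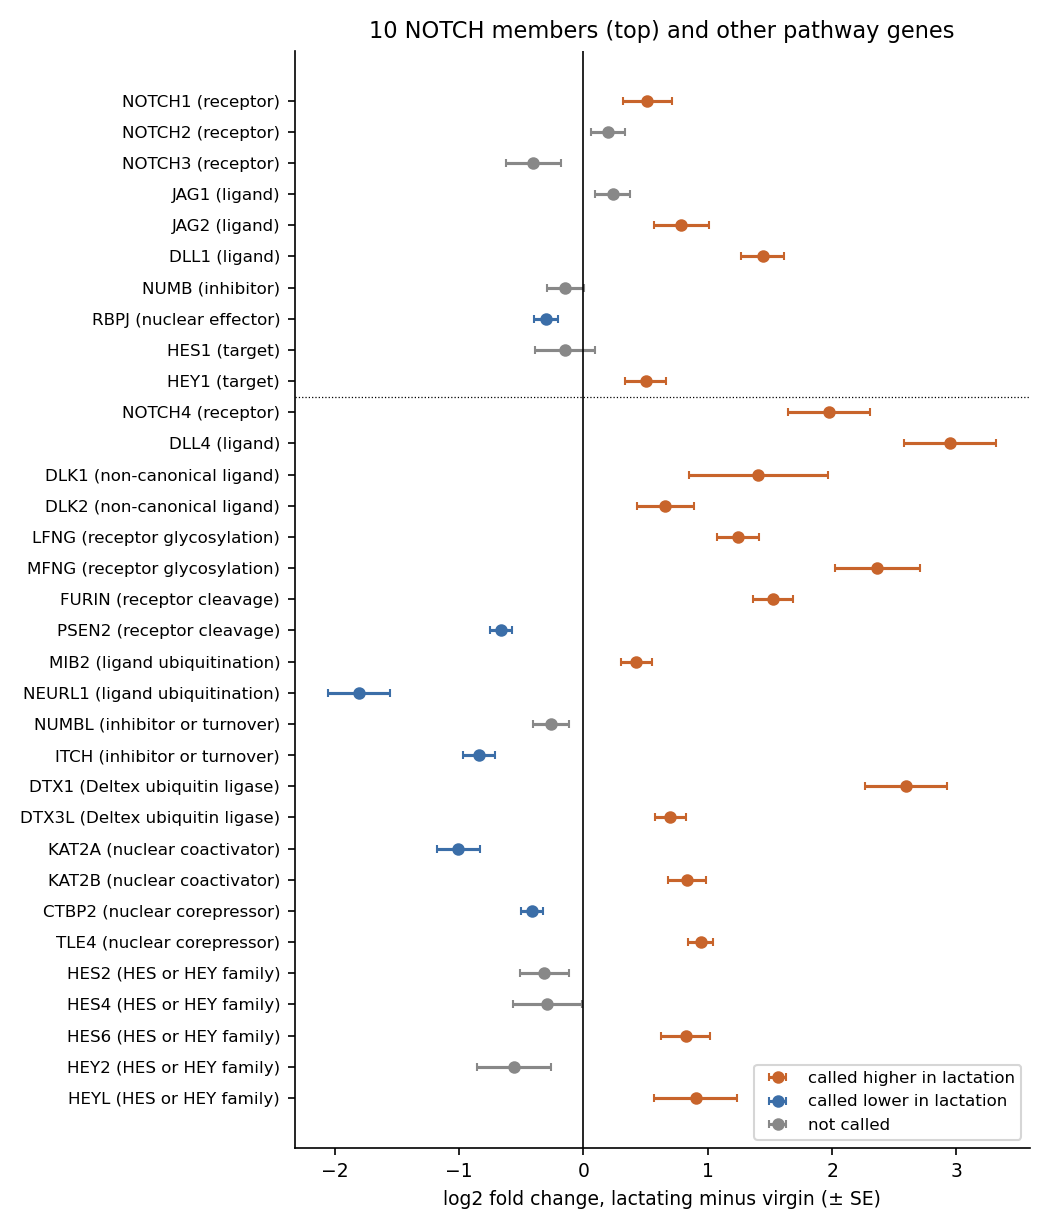
Log2 fold change with its SE, lactating minus virgin, of the 10 NOTCH genes above the dotted line and of the named pathway genes below it, coloured by the call of the edgeR test. DLL4 (2.95), DTX1 (2.60), MFNG (2.36) and NOTCH4 (1.97) lie farthest to the right and NEURL1 (-1.80) farthest to the left.

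Variation between animals was then examined within each stage. Of the 45 pairs of genes at 2 stages, 6 of the 90 relations passed a two-sided permutation test of Pearson's r with 100000 resamples and Benjamini-Hochberg adjustment over the 90. JAG2 and NOTCH1 varied together at both stages. In the 15 virgin libraries r was 0.87 (permutation p = 1e-05, the smallest these resamples can give, adjusted p = 9e-04) and Spearman's rho 0.90 (permutation p = 1e-05, adjusted p = 9e-04). In the 16 lactating libraries r was 0.77 (permutation p = 6.1e-04, adjusted p = 0.0157) and rho 0.77 (permutation p = 7.5e-04, adjusted p = 0.0166). Without the 2 libraries farthest from the median of NOTCH1, r was 0.84 in virgin libraries (V479 and V531 left out, permutation adjusted p = 0.0423) and 0.70 in lactating libraries (L478 and L538 left out, permutation adjusted p = 0.125). Without TMM factors r was 0.83 and 0.74 (permutation adjusted p = 9e-04 and 0.0157).

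In virgin libraries RBPJ was low where JAG2 was high, with r = -0.90 (permutation p = 4e-05, adjusted p = 0.0018) and rho = -0.82 (permutation p = 3.1e-04, adjusted p = 0.0093). Without V479 and V502 r was -0.71 (permutation adjusted p = 0.125), so that the strength of the relation rests in part on those libraries. In lactating libraries r of JAG2 and RBPJ was -0.39 (permutation adjusted p = 0.345) with rho = -0.28, and 0.31 without TMM factors. NOTCH1 and RBPJ gave r = -0.75 (permutation p = 7e-04, adjusted p = 0.0157) and rho = -0.74 (permutation adjusted p = 0.0343) in virgin libraries, and r = -0.55 without V479 and V531. The other lactating relations that passed, NOTCH1 with NOTCH2 (r = -0.74, rho = -0.40, permutation adjusted p = 0.0452 for r) and NOTCH2 with RBPJ (r = 0.69, rho = 0.49, permutation adjusted p = 0.0456 for r), fell to r = -0.14 and 0.48 without L478 and L538 and so rest on those libraries.

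**Figure D4:**
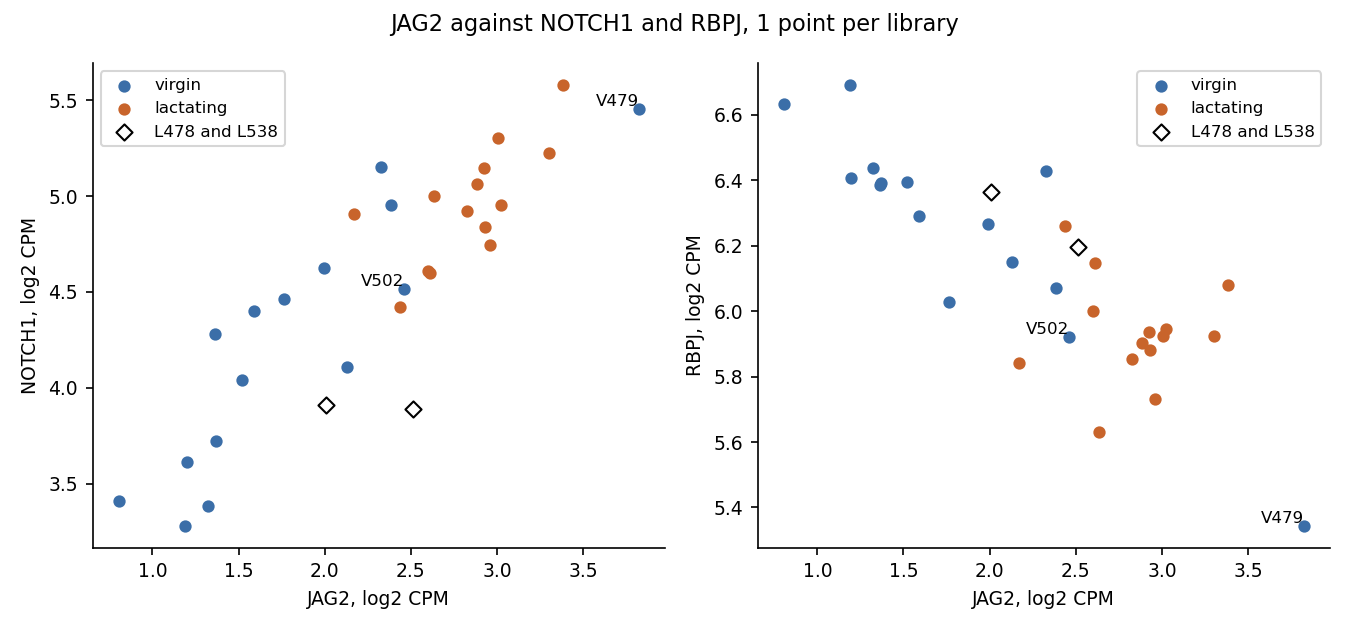
Log2 CPM of JAG2 against NOTCH1 (left) and RBPJ (right), 1 point per library, virgin in blue, lactating in orange and L478 and L538 as open diamonds. In virgin libraries NOTCH1 is high (r = 0.87) and RBPJ low (r = -0.90) where JAG2 is high, with V479 at the end of both.

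None of the relations of DLL1, HES1 or HEY1 with another of the 10 genes passed the permutation test. The lowest adjusted p for r was 0.168 for DLL1, 0.0550 for HES1 and 0.154 for HEY1. HES1 and HEY1 gave r = 0.35 in virgin (permutation adjusted p = 0.404) and 0.22 in lactating libraries (permutation adjusted p = 0.629). Across stages, no gene passed when its virgin level was set against the lactating level of the same 15 animals. NOTCH1 had the highest r (0.56, rho = 0.65, permutation p = 0.0279 for r, adjusted p = 0.279 over 10 genes), and DLL1 had r = 0.19 (permutation adjusted p = 0.808).

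Levels of the 10 genes were set beside the mean log2 CPM of 8 marker lists within each stage, and 21 of 160 relations passed the permutation test of r. JAG2 followed the myoepithelial list at both stages, with r = 0.81 in virgin (rho = 0.79, permutation p = 1.3e-04, adjusted p = 0.00416) and 0.82 in lactating libraries (rho = 0.81, permutation p = 9e-05, adjusted p = 0.0036). The rho values passed as well (permutation adjusted p = 0.0137 and 0.0115). Without the 2 libraries farthest from the median of the list these r were 0.77 and 0.73, and none of the 160 relations passed in that setting, where the lowest adjusted permutation p was 0.0604. NOTCH1 gave 0.68 and 0.70 with that list (permutation adjusted p = 0.0459 and 0.0280), which did not pass by rho (0.69 and 0.67, permutation adjusted p = 0.0596 and 0.0598). NOTCH3 followed it in virgin libraries by both measures (r = 0.69, permutation adjusted p = 0.0285, rho = 0.79, permutation adjusted p = 0.0137), with r = 0.16 in lactating libraries. JAG1 followed it in lactating libraries (r = 0.79, rho = 0.80, permutation adjusted p = 0.00663) and had r = -0.05 in virgin libraries, and a difference between the stages was not tested. NUMB went against it in lactating libraries (r = -0.80, rho = -0.86, permutation adjusted p = 0.0064), but had r = -0.19 there without TMM factors. RBPJ went against it in virgin libraries (r = -0.76, permutation adjusted p = 0.0080), but not by rho (-0.67, permutation adjusted p = 0.0675). Of the myoepithelial list, 2 of 9 tested members were called higher, 3 lower and 4 not called. This is near the shares over all rows (24.2% higher and 30.9% lower). The 3 called lower are keratins whose reads cannot be assigned to them alone. KRT14 and KRT17 share 1 counted locus with KRT16 and KRT42. KRT5 shares its counts with KRT75, KRT6A and KRT6B among others, over 19.5 times the span of its RefSeq gene. Among virgin libraries, ACTA2 and MYH11 of this list were highest in V502, as were NOTCH3 and the pericyte sum. The other tested members of the list were highest in other virgin libraries, as CNN1 and TAGLN in V479. Which cells lay behind the r values with this list was not tested.

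In lactating libraries NOTCH1 followed the endothelial list (r = 0.88, rho = 0.77, permutation p = 2e-05, adjusted p = 0.0016) and the pericyte list (r = 0.88, rho = 0.74, permutation adjusted p = 0.00213), with r = 0.73 and 0.70 without L478 and L538. JAG2 gave 0.77 and 0.76 with the same lists (permutation adjusted p = 0.00976 and 0.0111), and 0.69 and 0.63 without those libraries. In virgin libraries NOTCH1 and JAG2 gave r of 0.46 and 0.48 with the endothelial list, which did not pass. Since the endothelial and pericyte lists were also higher in lactation, their values stand beside the rises of NOTCH1 and JAG2, and their part in those rises was not tested. DLL1 passed with none of the 8 lists: its r was 0.29 in virgin and -0.27 in lactating libraries with the endothelial list, and 0.14 and -0.22 with the myoepithelial list. L478 and L538, with the lowest endothelial sums in lactation, held 15.3 and 27.1 CPM of DLL1. The other 14 ranged from 7.37 to 20.1 CPM with a median of 11.4 CPM, so L478 was within their range and L538 above it. The part of the endothelial markers in the rise of DLL1 was not tested.

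**Figure D5:**
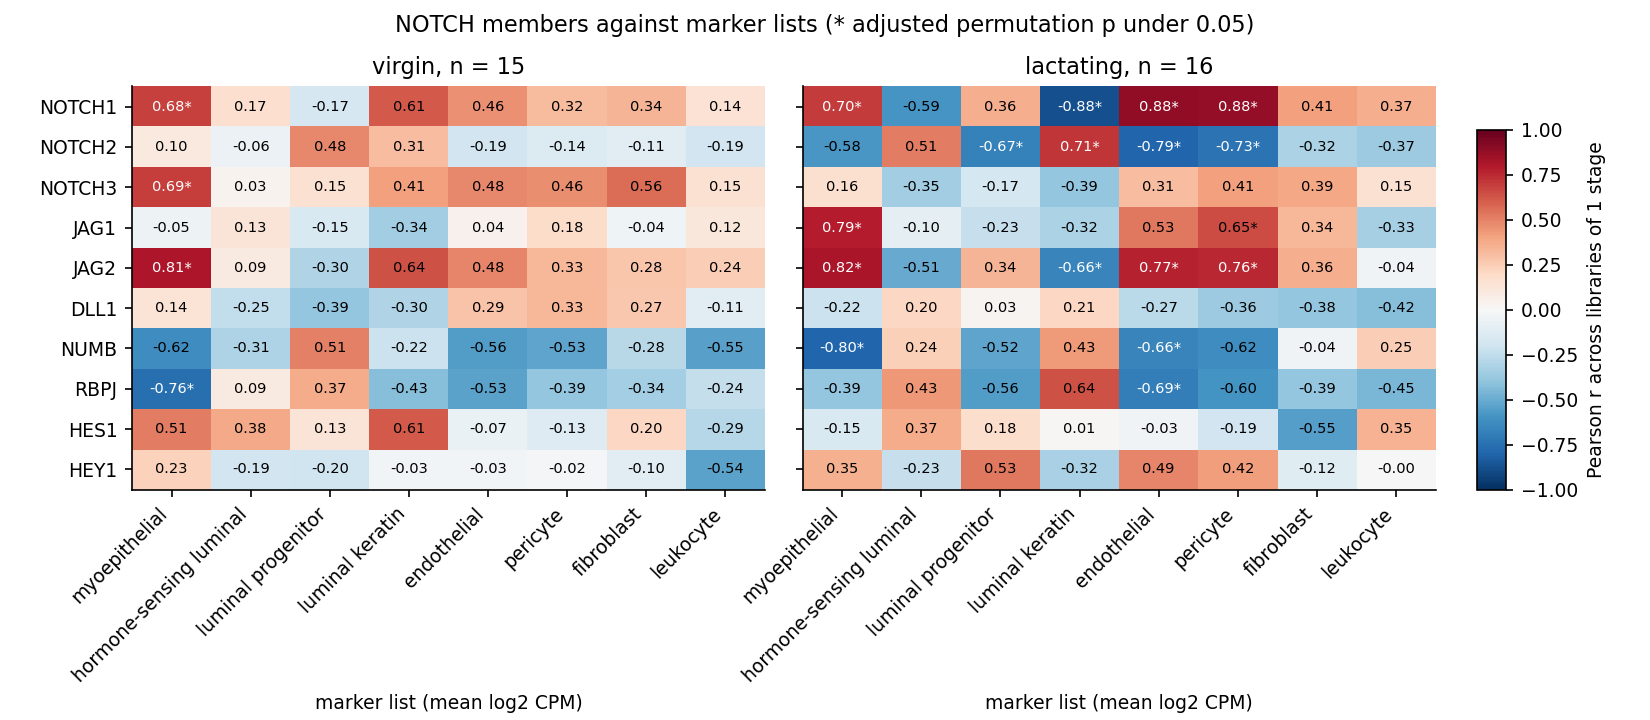
Pearson's r of each of the 10 NOTCH genes with the mean log2 CPM of 8 marker lists, in 15 virgin (left) and 16 lactating (right) libraries, with a star where the adjusted permutation p is under 0.05. The column luminal keratin is the general luminal list. JAG2 and NOTCH1 are starred with the myoepithelial list at both stages, and the row of DLL1 holds no star.

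The pathway genes called past 2-fold were set against the endothelial list in the same way, a comparison chosen after the values were seen. No other marker list was used here, so whether these genes follow another list, such as the pericyte list, as closely was not tested. DLL4 gave r = 0.95 (rho = 0.98) in virgin and 0.97 (rho = 0.94) in lactating libraries, with a permutation adjusted p of 4.5e-05 over 18 relations for each r. NOTCH4 gave 0.83 and 0.92 (permutation adjusted p = 3.34e-04 and 4.5e-05), MFNG 0.91 and 0.88 (7.2e-05 and 4.5e-05, permutation adjusted) and DTX1 0.78 and 0.81 (9.9e-04 and 3.3e-04, permutation adjusted). Without the 2 farthest libraries of each stage DLL4 had r = 0.965 and 0.956 and NOTCH4 0.83 and 0.84. LFNG also passed at both stages (0.69 and 0.74), DLK1 in virgin libraries (0.58) and NEURL1 in lactating ones (-0.54). FURIN (0.50 and -0.01) and KAT2A (-0.04 and 0.21) passed at neither stage. The part of the endothelial markers in the rises of DLL4, NOTCH4, MFNG, DTX1 and LFNG was not tested.

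Of 8058 rows outside the lists with a symbol and sufficient level, those whose levels were most like HES1 across libraries, by the sum of the r values of both stages, were NIPAL3 (r = 0.86 in 15 virgin and 0.71 in 16 lactating libraries), SSBP2 (0.84 and 0.72) and ZMYM3 (0.85 and 0.71). For HEY1 they were PIK3C2B (0.58 and 0.66), IRS2 (0.67 and 0.54) and JDP2 (0.57 and 0.59). These are the highest of many values and are given as a description.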

How the data were processed

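RNA sequencing of mammary epithelial organoids gave 31 libraries. Per the labels' protocols, poly-A RNA of high quality was made into strand-specific libraries with ERCC spike-in RNA. The read counts per gene were deposited by the authors as whole numbers without normalization. A second table, deposited by the authors, held values taken as RPKM, log2 fold changes (signed virgin minus lactating, as judged from the same table) and q-values, whose adjustment is not given in the sources used here. The tools named, per the submitters' processing notes, are featureCounts 1.5.2, StringTie 1.3.2, HISAT2 2.0, SAMtools and edgeR, with build UMD3.1. Their roles and settings are not given. No coordinates or sequences are printed, since the RefSeq table used here is of another build (ARS-UCD2.0) and holds no sequence. Its gene spans served only for length ratios.

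Rows passed filterByExpr (at least 10 reads, total of 15), and counts were scaled by TMM and tested with edgeR 4.0.16 (glmQLFit, robust, and glmQLFTest) in R 4.3.3 with stage as the only term over all 31 libraries. Adjusted p-values were taken over 13180 rows. The SE is the log2 fold change divided by the square root of F. DESeq2 1.42.0 and limma 3.58.1 were alternatives. Correlations used log2 CPM with a prior count of 2. The edgeR fit and the permutation test were tested on simulated data. There the edgeR fit recovered 22 of 50 genes changed by 1.5-fold and 42 of 50 changed by 2-fold, so a gene that is not called is not shown to be unchanged. No 2 libraries agreed within sampling noise (chi-square per degree of freedom of at least 36.8). The number in the titles is the animal, and 15 same-animal pairs had a mean correlation of deviations from stage means of 0.221 (0.0702 to 0.392), against -0.016 between animals.

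The 10 genes and the lists were chosen with earlier results of these data known. Named pathway genes were all receptors, ligands and HES or HEY genes, the 2 smallest p-values of each role and calls past 2-fold. For each marker list the 2 genes of highest mean CPM were carried through the alternatives, and the 3 rows nearest to HES1 and to HEY1 were taken by the sum of r over stages.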

Additional observations from a re-analysis of the deposited data

How the results depend on the processing

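DLL1 kept its direction and call under every alternative named here. Without TMM factors 1 of the 10 NOTCH genes was called higher and 4 lower (4 and 1 with them), and of the pathway list 8 higher and 24 lower (20 and 8). NOTCH2 (-0.23), JAG1 (-0.28) and MIB2 (-0.066) then changed sign, all without a call. Without the animals with lettered titles 1 of the 10 genes was called higher and 0 lower, and 13 pathway genes higher and 7 lower. Over all rows 2416 were then called higher and 3063 lower, against 3189 and 4069 with all libraries. That fit held fewer libraries, and the part of this in the lost calls was not tested. NOTCH2 also turned (-0.0055) without L478 and L538. The replicate block with the animal as a term, a fit of 30 libraries, gave DLL1 1.47, JAG2 0.95, NOTCH1 0.59, HEY1 0.56 and RBPJ -0.28, and changed no call among the 10 genes or the named pathway genes. The replicate block also moved HEY2 to -0.31, HES4 to -0.04 and DLK1 to 2.32. Of the markers, COL1A1 (0.0043) and COL3A1 (0.052) turned with the block, and without V502 COL1A1 was -0.21 and COL3A1 -0.06. DESeq2 (-0.18 and -0.06) and limma-voom (-0.10 and -0.02) did not call them. With each library left out in turn, 4 of the 10 genes were called higher each time and 1 to 2 lower, the extra call being NOTCH3 without L595, and NOTCH1 had its highest adjusted p (0.0496, edgeR) without that library. Of the relations between genes, 10 passed without TMM factors and 1 without the 2 farthest libraries, against 6. Of those with marker lists, 12 and 0 passed, against 21. DESeq2, limma-voom, RLE factors, other filters, removal of milk protein counts and counting repeated loci once changed no call among the 10 genes, and counting repeated loci once left 7 pathway genes lower. Depth limits HEY1, JAG2 and DLL1 most among the 10, with lowest counts of 57, 68 and 87 reads in a library.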
